A study of Mus musculus with 48 samples.

Results

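The comparison set ribosome-bound RNA of the superior colliculus (SC) at postnatal day 14 (P14) against the same capture at postnatal day 10 (P10), with 3 libraries per age out of the 48 libraries of the series, and covered the 15752 genes with enough counts to be tested, of 54331 listed. The libraries come from wild-type mice whose optic nerves had not been cut, and all 6 carry titles of 1 code series. Axon-TRAP is translating ribosome affinity purification done on the target region of an axon: a tagged ribosomal protein is made in retinal ganglion cells (RGC), their axons run from the eye to the SC, and pulling down the tag from SC tissue is meant to recover the mRNA on ribosomes inside those axons. The sources used here do not give the strain, the driver of the tagged protein, the sex of the animals, or whether each library is from its own animals, so the p-values measure the spread between libraries, which may be technical. Beside these stand 3 P14 and 3 P10 libraries of RNA captured from the SC after ethynyl uridine (EU), a label that newly made RNA takes up, had been injected into the eye of wild-type mice with uncut nerves. The labels carry 1 protocol text for both captures, which describes pools of 3 animals for EU capture and no ribosome pull-down.

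The interval lies around eye opening in the mouse. By then RGC axons have reached the SC and are sharpening their map and building synapses, oligodendrocytes have begun to wrap them in myelin, and voltage-gated channels are gathering at the gaps in that sheath, the nodes of Ranvier. Growth cone genes are known to be active in axons that still extend, and many mRNAs for ribosomal proteins carry a run of pyrimidines at their 5′ end through which their translation is controlled.

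No gene passed the test. By edgeR's quasi-likelihood F test with Benjamini-Hochberg adjustment, 0 of 15752 genes were called at an adjusted p under 0.05 (percent called 0), and the smallest adjusted p was 0.151. An unadjusted p under 0.05 was reached by 2275 genes, which is 14.4% of those tested, with 846 higher at P14 (5.37%) and 1429 lower (9.07%). All 3 P14 libraries lay above all 3 P10 libraries for 1726 genes (11.0%) and below them for 1737 genes (11.0%), so the groups did not overlap for 22.0% of genes. DESeq2, fitted to the same counts, called 760 genes (4.82%), 189 higher (1.20%) and 571 lower (3.62%) at P14, and limma-trend on log2(TPM + 1), where TPM is abundance scaled for transcript length, called 0. On that TPM scale the median gene was 0.44 higher at P14 and the split of unadjusted calls turned to 2894 higher and 412 lower, whereas after each library was centred on its median it was 617 higher and 1878 lower. The edgeR counts without the first P10 library were 23 genes called higher and 212 called lower, so which genes pass rests on that library. Values are therefore given library by library, as CPM, counts scaled to a common library size with TMM factors, and log2 fold changes are P14 over P10.

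The P10 libraries differed among themselves. Library totals were 24338321, 26023983 and 25570140 estimated counts at P14, and 25607188, 14295818 and 24105801 at P10. Pairwise correlations of log2 CPM ran from 0.905 to 0.912 within P14 and from 0.855 to 0.884 within P10, and P10 replicate 1 correlated more with P14 replicate 2 (0.902) than with either P10 library. The Y-linked gene Ddx3y, an RNA helicase gene, had 605, 82 and 391 counts in the P14 libraries, and 84, 0 and 0 counts in P10 replicates 1, 2 and 3. Eif2s3y, a Y-linked translation initiation factor gene, had 133, 69 and 156 counts in the P14 libraries, and 312, 0 and 3 counts in the P10 libraries. Kdm5d, another Y-linked gene, had 123, 67 and 103 counts in the P14 libraries, and 50, 10 and 10 counts in the P10 libraries. Xist, the RNA of the inactive X chromosome, had between 0 and 3 counts in P14 libraries and between 0 and 1 in P10 libraries. The P10 library that lay closest to P14 thus had more Y-linked counts than the other P10 libraries, none had clear Xist counts, and no sex is read from these values. The part of this in the age difference was not tested.

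Markers were read as a check of the capture. Of 17 RGC identity genes, 13 were tested and their summed level was 1979, 1175 and 1129 CPM in the P14 libraries, against 1121, 1261 and 1128 CPM in the P10 libraries. Nefl, Thy1 and Nefm were the members with the highest level. At an unadjusted p under 0.05, 1 was higher and 2 were lower, against 5.37% and 9.07% of all genes. Nefm had 429, 239 and 329 CPM in P14 libraries, against 242, 74.4 and 14.7 CPM in P10 libraries. Irx2 had 20.3, 15.3 and 30.1 CPM in P14 libraries, against 33.5, 51.9 and 110 CPM in P10 libraries. Tbr1 was at 0 in all 6 libraries, and Isl1, Isl2 and Opn4 stayed under 0.5 CPM. Thy1, a surface protein of many projection neurons, had 521, 290.5 and 298 CPM in P14 libraries, against 215, 574 and 519 CPM in P10 libraries. Markers of cells native to the SC were present at both ages. The 18 astrocyte and radial glia genes summed to between 17104 and 27600 CPM at P14 and between 12509 and 24937 CPM at P10, and 14 microglia genes to between 769 and 1300 CPM at P14 and between 809 and 1217 CPM at P10. Erythroid genes, chiefly haemoglobins, varied widely within both ages, with 3420, 23944 and 3895 CPM at P14 and 4537, 11379 and 44268 CPM at P10. In such bulk libraries fewer cells of a type and less RNA per cell cannot be told apart. The RGC sum was below the astrocyte sum in all 6 libraries, and these values do not show what share of the RNA came from axons.

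Myelin genes were higher at P14. All 18 tested genes of the mature myelin list had a positive log2 fold change, with a median of 2.28 against 0.015 over all tested genes. An unadjusted p under 0.05 was reached by 14 of 18, all higher at P14, against 5.37% of all genes, and for 9 of 18 the P14 libraries lay above all P10 libraries, against 11.0% of all genes. Their summed level was 21171, 7150 and 17810 CPM in the P14 libraries, against 3931, 1828 and 3086 CPM in the P10 libraries. The lowest P14 library, replicate 2, was still above the highest P10 library.

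Mobp, a structural protein of central myelin encoded on chromosome 9 at 120149707 to 120181484 of GRCm38, had 2360.1, 461 and 1198 CPM in P14 libraries, against 157, 54.2 and 154 CPM in P10 libraries. The groups did not overlap, which was a condition of the rule by which Mobp was named. The log2 fold change was 3.46 ± 0.68 (SE, n = 3 per age), with an adjusted p of 0.151 by edgeR. Mbp, the basic protein that compacts the sheath, had 11791, 3808 and 7434 CPM in P14 libraries, against 1736, 1019.6 and 1897 CPM in P10 libraries, a log2 fold change of 2.31 ± 0.54 (SE, n = 3 per age). For Mobp and Mbp, P14 replicate 2 was the lowest P14 library and lay above every P10 library. Opalin, a membrane protein of mature oligodendrocytes, had 81.7, 8.26 and 46.0 CPM in P14 libraries, against 2.21, 0.0770 and 3.46 CPM in P10 libraries. Mal, a lipid-raft protein of myelin, had 179, 29.9 and 326 CPM in P14 libraries, against 27.2, 13.6 and 13.3 CPM in P10 libraries. Mag, an adhesion protein on the inner face of the sheath, had 297, 291 and 796 CPM in P14 libraries, against 131, 56.8 and 65.2 CPM in P10 libraries, and here P14 replicate 3 stood well above the other P14 libraries. None of these genes was called by edgeR, and DESeq2 called 11 of the 18, all higher at P14. With each library left out in turn the list median lay between 1.91 and 2.66.

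Genes of earlier oligodendrocytes showed no shared direction. Of 18 lineage and precursor genes, 3 had an unadjusted p under 0.05 and were higher at P14, and 2 were lower. The shares of all genes were 5.37% and 9.07%. The median log2 fold change was 0.48, or 0.20 without P14 replicate 3. For 3 of 18, Gpr17, Bcas1 and Enpp6, all P14 libraries lay above all P10 libraries, against 11.0% of all genes. For 2 of 18, Olig1 and Cspg5, they lay below, against 11.0%. Enpp6, a marker of cells about to form myelin, had 65.2, 62.9 and 94.0 CPM in P14 libraries, against 35.1, 24.5 and 26.6 CPM in P10 libraries. Olig1, a transcription factor of the lineage, had 785, 613 and 917 CPM in P14 libraries, against 1923, 963 and 1371 CPM in P10 libraries, so it was lower in every P14 library, with a log2 fold change of -0.88 ± 0.42 (SE, n = 3 per age) that missed an unadjusted p of 0.05. Sema4d, a transmembrane semaphorin that oligodendrocytes make, was among the 12 genes named as higher at P14, with 269.5, 142 and 276 CPM in P14 libraries, against 70.8, 47.9 and 63.0 CPM in P10 libraries.

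Genes of the node of Ranvier and of contact between axon and sheath leaned the same way. Of 16 tested members, 14 had a positive log2 fold change, 7 had an unadjusted p under 0.05 and were higher at P14, none was lower, and the median was 0.91, or 0.49 once the trend with transcript length was removed. The share of all genes higher at that p was 5.37%. For 5 of 16 the groups did not overlap, all with P14 above, against 11.0% of all genes. Scn8a, which encodes the sodium channel of mature nodes, had 199.9, 169 and 172 CPM in P14 libraries, against 88.6, 58.8 and 46.5 CPM in P10 libraries, and a log2 fold change of 1.48 ± 0.38 (SE, n = 3 per age). The groups were well apart. Kcna2, a potassium channel that flanks the node, had 136, 88.3 and 177 CPM in P14 libraries, against 59.8, 81.1 and 71.0 CPM in P10 libraries, and the lowest P14 value was close to the highest P10 value. Nrcam, an adhesion molecule of the node and the growth cone, had 97.2, 96.1 and 117 CPM in P14 libraries, against 74.9, 49.7 and 21.7 CPM in P10 libraries. Ank3, the ankyrin that anchors nodal channels, had 148, 30.9 and 79.6 CPM in P14 libraries, against 33.9, 43.7 and 17.0 CPM in P10 libraries, with overlap because P14 replicate 2 lay below P10 replicates 1 and 2. Mag and Mal, which also stand in the myelin list, are glial members. Both are among the 5 with all P14 libraries above P10, so these counts are not separate from the myelin result. Cntn1, an axonal adhesion molecule of the paranodal junction, had 108, 181 and 268 CPM in P14 libraries, against 109, 568 and 604 CPM in P10 libraries, with P10 replicate 1 at the level of P14. Nodal sums were 1723, 1324 and 2831 CPM at P14 and 944, 1311 and 1246 CPM at P10. P14 replicate 2 thus lay only just above the highest P10 library, replicate 2. These sums include Mag and Mal, with 291 and 29.9 CPM in P14 replicate 2, against 56.8 and 13.6 CPM in P10 replicate 2. The narrow gap between the sums therefore rests on these myelin genes.

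**Figure D1:**
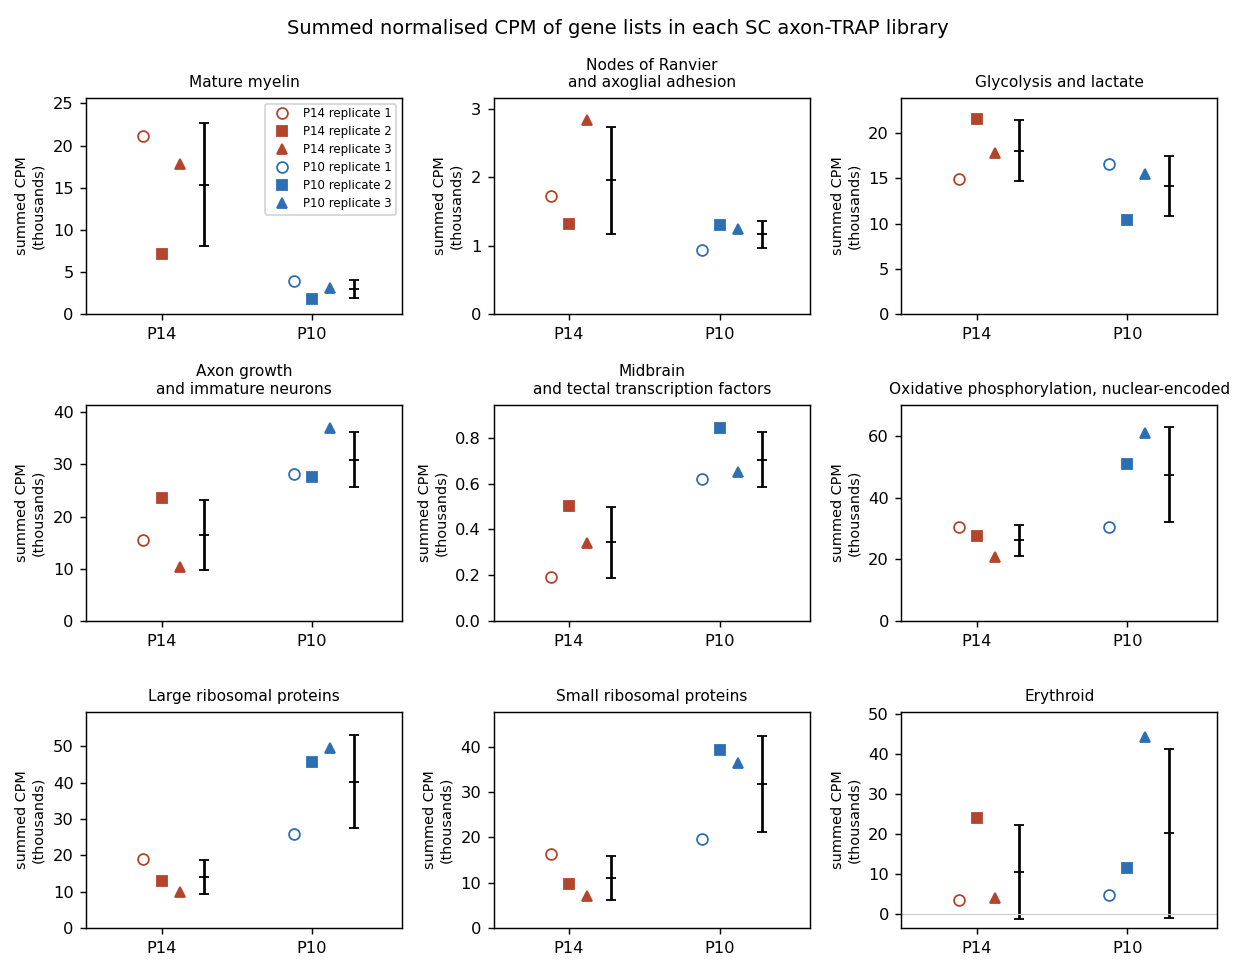
Summed CPM, in units of 1000, of the members of 9 gene lists in each SC axon-TRAP library, with P14 libraries in red, P10 libraries in blue and black bars for the mean ± SD of 3 libraries. Myelin sums lie apart at 7150 to 21171 CPM in P14 libraries and 1828 to 3931 CPM in P10 libraries, whereas P10 replicate 1 lies near the P14 libraries for both ribosomal lists and for oxidative phosphorylation, and the erythroid sum varies within both ages.

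Astrocyte genes moved in both directions. Of 18 members, 6 had an unadjusted p under 0.05 and were higher at P14 and 3 were lower, against 5.37% and 9.07% of all genes. The median log2 fold change of 0.32 was 0.14 without the length trend and -0.01 without P14 replicate 2. Slc1a2, the main glutamate transporter of astrocytes, had 1019, 558 and 1182 CPM in P14 libraries, against 222, 205 and 203 CPM in P10 libraries, so P10 libraries were nearly alike and all P14 libraries were above them. Gjb6, a gap junction protein of astrocytes, had 64.1, 112 and 209.9 CPM in P14 libraries, against 19.0, 27.5 and 45.6 CPM in P10 libraries. Aldoc, the brain aldolase, had 1941, 2638 and 3115 CPM in P14 libraries, against 1085, 826 and 1342 CPM in P10 libraries. Sox9, a transcription factor of glia and their progenitors, was lower at P14, with 24.5, 24.8 and 47.8 CPM in P14 libraries, against 63.6, 229 and 112 CPM in P10 libraries. Fam107a, an actin-associated protein made in astrocytes, had the largest log2 fold change of the named genes, 5.21 ± 1.05 (SE, n = 3 per age), with 67.3, 14 and 287 CPM in P14 libraries, against 5.44, 3.16 and 1.30 CPM in P10 libraries. The P14 libraries differed more than 10-fold from each other for this gene.

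The remaining genes named as higher at P14 encode mostly enzymes. Dio2, the deiodinase that makes active thyroid hormone, lies on chromosome 12 at 90724552 to 90738438 and had 84.1, 53.3 and 101 CPM in P14 libraries, against 7.34, 16.4 and 10.6 CPM in P10 libraries (log2 fold change 2.80 ± 0.46 (SE, n = 3 per age)). Klhl2, an adaptor of a ubiquitin ligase, had 67.0, 41.4 and 66.6 CPM in P14 libraries, against 6.84, 11.9 and 12.2 CPM in P10 libraries. For both genes the lowest P14 library was more than 3-fold above the highest P10 library. Acot11, an acyl-CoA thioesterase, had 46.5, 51.0 and 96.4 CPM in P14 libraries, against 14.9, 9.25 and 14.8 CPM in P10 libraries. Gpld1, a phospholipase that cuts lipid anchors, had 33.3, 30.6 and 73.2 CPM in P14 libraries, against 8.86, 5.70 and 9.88 CPM in P10 libraries. Itih3, a heavy chain of a secreted protease inhibitor family, had 85.9, 32.9 and 92.4 CPM in P14 libraries, against 9.79, 8.71 and 18.2 CPM in P10 libraries. Cyp2d22, Sult1a1 and Tmem88b completed the 12, with log2 fold changes of 2.57, 2.36 and 4.48, and Tmem88b had only 4.02 CPM in P14 replicate 2 against 80.5 CPM in P14 replicate 1. Each of the 12 had an adjusted p of 0.151 by edgeR and was called by DESeq2.

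The 12 genes named as lower at P14 have varied functions. Dll3, a ligand of the Notch pathway encoded on chromosome 7 at 28293553 to 28302238, had 5.67, 4.57 and 4.75 CPM in P14 libraries, against 38.5, 55.1 and 121 CPM in P10 libraries (log2 fold change -3.83 ± 0.53 (SE, n = 3 per age)). Hes5, a repressor that Notch signalling switches on, had 8.77, 8.85 and 19.8 CPM in P14 libraries, against 79.6, 96.4 and 168 CPM in P10 libraries. Both were several-fold lower in each of these 3 P14 libraries than in any P10 library. Sncb, beta-synuclein of presynaptic terminals, lies on chromosome 13 at 54758860 to 54766595 and had 7.12, 6.92 and 17.5 CPM in P14 libraries, against 148, 102 and 119 CPM in P10 libraries (log2 fold change -3.55 ± 0.49 (SE, n = 3 per age)). Lgr4, a receptor for R-spondins in the Wnt pathway, had 5.0, 5.95 and 5.19 CPM in P14 libraries, against 29.7, 45.9 and 118 CPM in P10 libraries. Sp5, a zinc finger factor that the Wnt pathway switches on, had 4.62, 9.48 and 13.2 CPM in P14 libraries, against 76.2, 65.3 and 59.9 CPM in P10 libraries. Across these 5 genes the highest P14 library stayed at 19.8 CPM or less.

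Vapa, which tethers the endoplasmic reticulum to other membranes, had 118, 82.2 and 129 CPM in P14 libraries, against 463, 1213 and 755 CPM in P10 libraries. Vgf, the precursor of secreted neuropeptides, had 11.1, 9.45 and 22.4 CPM in P14 libraries, against 57.3, 127 and 201 CPM in P10 libraries. For both, P10 replicate 1 was the P10 library nearest to the compared P14 libraries, yet still more than 2-fold above them. In PT replicates 2 and 3, scaled as above, Vapa had 72.2 and 102 CPM and Vgf had 46.9 and 269 CPM. Rpl10, a large ribosomal subunit protein, had 57.5, 105 and 61.8 CPM in P14 libraries, against 269, 628 and 442 CPM in P10 libraries. Ydjc, Hyi, Bex4 and Serf1 completed the 12, with log2 fold changes of -2.54, -2.55, -2.93 and -2.67. All 12 again had an adjusted p of 0.151 by edgeR and were called by DESeq2.

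**Figure D2:**
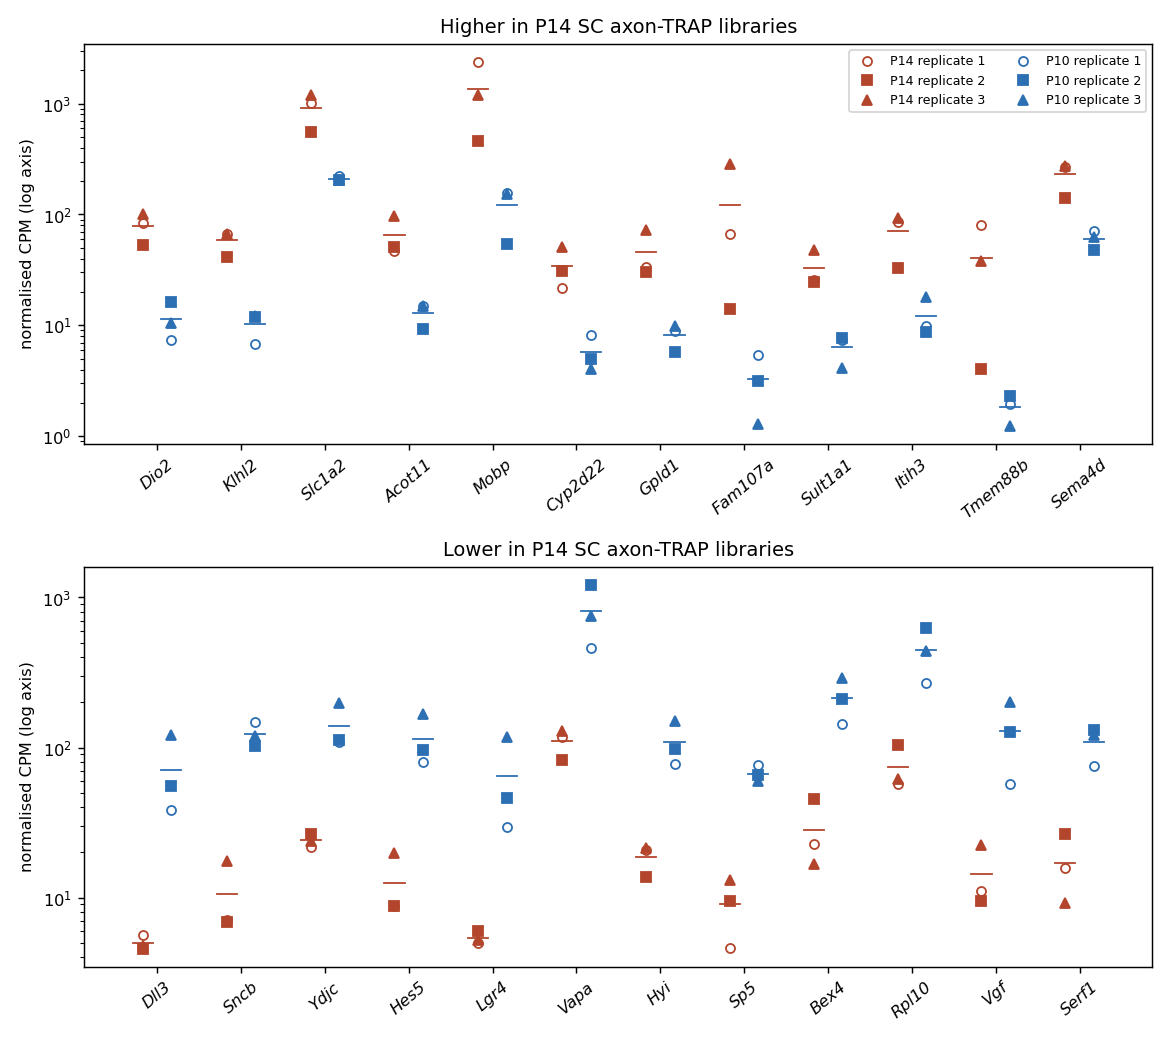
CPM on a log axis of the 12 genes named as higher (top) and the 12 named as lower (bottom) at P14, with 1 point per SC axon-TRAP library, P14 in red to the left of P10 in blue, and short lines for the mean of 3 libraries. No P14 point overlaps the P10 points of its gene, which was a condition for naming the gene. P10 replicate 1 (open blue circle) is the P10 point nearest to P14 for most of the genes in the lower panel.

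Axon growth genes were lower at P14. Of 22 members, 21 had a negative log2 fold change and the median was -0.83, or -0.89 once the trend with transcript length was removed. It was -0.30 on the TPM scale, -0.89 there with libraries centred, and lay between -1.28 without P14 replicate 2 and -0.78 without P10 replicate 2. An unadjusted p under 0.05 was reached by 9 of 22, all lower at P14, against 9.07% of all genes, and for 7 of 22 the groups did not overlap, all with P14 below, against 11.0%. Summed CPM was 15583, 23633 and 10368 in the P14 libraries, against 28060, 27584 and 36952 in the P10 libraries.

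Marcks, an actin-binding substrate of protein kinase C in growth cones, had 73.0, 70.9 and 55.5 CPM in P14 libraries, against 184, 523 and 2582 CPM in P10 libraries (log2 fold change -4.04 ± 0.86 (SE, n = 3 per age)). The P14 libraries were close together and the P10 libraries were spread over more than 10-fold. Sox4, a transcription factor of young neurons, had 11.0, 22.5 and 54.7 CPM in P14 libraries, against 139.9, 159.9 and 181 CPM in P10 libraries. Stmn1, a protein that takes microtubules apart, had 685, 929 and 661 CPM in P14 libraries, against 2492, 1956 and 1956 CPM in P10 libraries, and the P10 libraries were alike. Dpysl5, a collapsin response mediator of growing neurites, had 49.9, 167 and 71.9 CPM in P14 libraries, against 213, 246 and 262 CPM in P10 libraries. Stmn2, a microtubule regulator of growing axons, had 603, 446 and 402 CPM in P14 libraries, against 885, 1424 and 764 CPM in P10 libraries. Cd24a, a surface protein of young neurons, had 13.8, 64.8 and 41.8 CPM in P14 libraries, against 202, 89.3 and 137 CPM in P10 libraries. Gap43, a growth cone protein used as the classic marker of axon growth, overlapped between the ages, with 352, 1219 and 249 CPM in P14 libraries, against 724, 896 and 637 CPM in P10 libraries.

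Cytoskeleton and transport genes of mature axons showed no common direction. Of 21 neurofilament and axon skeleton genes, 3 had an unadjusted p under 0.05 and were higher at P14 and 1 was lower. The shares of all genes were 5.37% and 9.07%, and the median log2 fold change of the list was -0.02. Nefh, the heavy neurofilament subunit that is added as axons mature, had 124, 67.2 and 57.6 CPM in P14 libraries, against 48.2, 22.3 and 36.5 CPM in P10 libraries. Tubb5, a beta-tubulin and the member that was lower, had 847, 2121 and 765 CPM in P14 libraries, against 5009, 3829 and 4127 CPM in P10 libraries, with P14 replicate 2 between the other P14 libraries and P10. Nefl, the light subunit, had 793, 433 and 254 CPM in P14 libraries, against 437, 269 and 315 CPM in P10 libraries, with overlap. Ank2, the ankyrin of the axon shaft, had 288, 40.5 and 107 CPM in P14 libraries, against 36.9, 37.5 and 13.1 CPM in P10 libraries, and the values for P14 replicate 2 and P10 replicates 1 and 2 were nearly equal. Among 28 kinesin, dynein and dynactin genes, 0 were higher and 3 were lower at an unadjusted p under 0.05, against the same shares. Dynll1, a dynein light chain, had 547, 499 and 272 CPM in P14 libraries, against 583, 1181 and 2057 CPM in P10 libraries.

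Guidance genes did not share a direction either. Of 35 tested members, 2 had an unadjusted p under 0.05 and were higher at P14 and 3 were lower. The shares of all genes were 5.37% and 9.07%, and the median log2 fold change of the list was 0.02. Efna3, an ephrin ligand, had 5.53, 11.2 and 9.04 CPM in P14 libraries, against 38.5, 35.3 and 61.3 CPM in P10 libraries. Efna2, another ephrin and one of those that set up the retinotopic map in the SC, had 21, 32.8 and 31.7 CPM in P14 libraries, against 104, 90.2 and 78.2 CPM in P10 libraries. Both ephrins were lower in every P14 library than in any P10 library, and both were called lower by DESeq2. Nrp1, a receptor for secreted semaphorins, had 85.5, 95.0 and 72.7 CPM in P14 libraries, against 40.9, 59.9 and 33.1 CPM in P10 libraries.

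Ribosomal protein genes made up the broadest set of lower values. Of 44 large subunit genes, 29 had an unadjusted p under 0.05 and were lower at P14, 0 were higher, and 23 had all P14 libraries below all P10 libraries. Of 32 small subunit genes, 23 were lower at an unadjusted p under 0.05, 0 were higher, and 17 had P14 below P10. The background for such counts was 9.07% and 11.0% of all genes. Median log2 fold changes were -1.43 and -1.71, they were -0.84 and -1.06 once the trend with transcript length was removed, and on the TPM scale, where the median gene was at 0.44, they were -0.63 and -0.88, or -1.22 and -1.47 with libraries centred. Without P10 replicate 1 they were -1.65 and -2.03. Reads of ribosomal protein genes are shared with many processed pseudogenes, so single values are uncertain, and the 111 tested processed pseudogenes had a median log2 fold change of -0.90 themselves. P10 replicate 1 held less of these mRNAs than the other P10 libraries: the large subunit sum was 19025, 13020 and 9838 CPM in P14 libraries and 25801, 45632 and 49483 CPM in P10 replicates 1, 2 and 3. The small subunit sum was 16390, 9713 and 7083 CPM in P14 libraries and 19735, 39343 and 36517 CPM in P10 libraries.

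Sequences around the annotated start of 5 of these genes, 3 of the large and 2 of the small subunit, are printed because the pyrimidine run is the feature for which the family is known. Each is 30 bases on the strand of the gene, taken from the RefSeq promoter table for GRCm38.p6, with capitals for the run, defined as a C followed by 6 or more bases that are C or T within the window of 10 bases before to 40 bases after the annotated start. The longest such run in the window is marked. The genes were picked for a small unadjusted p among those that have such a run, so a run in each was set in advance.
Rplp2: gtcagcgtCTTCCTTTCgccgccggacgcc
Rpl27a: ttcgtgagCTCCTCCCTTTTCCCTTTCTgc
Rpl28: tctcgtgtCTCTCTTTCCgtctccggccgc
Rps6: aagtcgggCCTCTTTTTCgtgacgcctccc
Rps12: accgccggCCTTTTCCCCTgccgccgccga
Rplp2 lies at chr7:141447639-141447668 (plus strand), Rpl27a at chr7:109519183-109519212 (plus), Rpl28 at chr7:4792955-4792984 (plus), Rps6 at chr4:86857347-86857376 (minus) and Rps12 at chr10:23787180-23787209 (minus). With the annotated start counted as 0, the run begins at -4 in Rplp2 and Rpl27a, at -2 in Rpl28, at -1 in Rps6 and at 8 in Rps12. Rps23 was also picked but is not printed, and its run of 7 bases begins at 25. The counts that follow take a run anywhere in the window, so they are not counts of runs at the start itself. Such a run, read on the strand of the gene only, was present in 39 of 56 ribosomal protein genes with a window (69.6%), against 24.4% of the 11694 tested genes with a window and 23.9% of all 27025 genes in the table. Medians of genes with and without the run were set side by side, and no test was made. The median log2 fold change was -1.50 in the 39 ribosomal protein genes with the run and -1.34 in the 17 without it. It was 0.03 in the 2809 other genes with the run and 0.04 in the 8829 other genes without it. Among other genes with a longest transcript of at most 2000 bases it was -0.66 in 565 with the run and -0.48 in 1897 without it. Among longer ones it was 0.16 with and without the run.

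Values of these and other members show the same split of the P10 group. Rplp2, an acidic protein of the ribosomal stalk, had 301, 185 and 168 CPM in P14 libraries, against 350.4, 3344 and 2859.9 CPM in P10 libraries, with P10 replicate 1 close to P14 and P10 replicates 2 and 3 more than 8-fold above it. Rps12, a small subunit protein, had 259, 85.1 and 130.3 CPM in P14 libraries, against 323, 2114 and 1535 CPM in P10 libraries. Rps23, which lies near the decoding centre, had 269.9, 161 and 105 CPM in P14 libraries, against 316, 1036 and 956 CPM in P10 libraries. In these 3 genes the groups were separated only by a narrow gap. In others the gap was wide: Rps6, the small subunit protein that is phosphorylated downstream of mTOR, had 472, 314 and 418 CPM in P14 libraries, against 1084, 1799 and 2306 CPM in P10 libraries (log2 fold change -2.11 ± 0.44 (SE, n = 3 per age)), and Rpl8 had 1167, 1282 and 1101 CPM in P14 libraries, against 3310.1, 3748 and 7286 CPM in P10 libraries. Rpl27a had 262, 157 and 138 CPM in P14 libraries, against 439.5, 764 and 900.4 CPM in P10 libraries, and Rpl28 had 191, 136 and 93.7 CPM in P14 libraries, against 271, 529 and 613 CPM in P10 libraries. Rpl3, a protein near the peptidyl transferase centre, was the 1 large subunit gene with a positive log2 fold change, and its groups overlapped, with 897, 940.2 and 547 CPM in P14 libraries, against 507, 616 and 815 CPM in P10 libraries.

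Of 37 translation factors, 2 were higher and 4 lower at P14 at an unadjusted p under 0.05, against 5.37% and 9.07% of all genes, and the median log2 fold change was -0.22. Eef1b2, an elongation factor subunit whose mRNA belongs to the same pyrimidine-run class, had 456, 376 and 358 CPM in P14 libraries, against 664, 1446 and 2575 CPM in P10 libraries. Eif4b and Eif4g3, initiation factors that work on the mRNA cap, were higher in every P14 library: Eif4b had 204, 223 and 179 CPM in P14 libraries, against 129, 101 and 94.8 CPM in P10 libraries, and Eif4g3 had 107, 189 and 124 CPM in P14 libraries, against 70.6, 83.5 and 66.5 CPM in P10 libraries. Tpt1, a translationally controlled protein, had 704, 660.3 and 1129 CPM in P14 libraries, against 2446, 3341 and 7971 CPM in P10 libraries.

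Of 21 glycolysis and lactate genes, 6 had an unadjusted p under 0.05 and were higher at P14, against 5.37% of all genes, 0 were lower, and the median log2 fold change was 0.49. Tpi1, triose phosphate isomerase, had 964, 1829 and 1169.6 CPM in P14 libraries, against 505, 387 and 523 CPM in P10 libraries. Pfkm, a phosphofructokinase, had 258, 339 and 376 CPM in P14 libraries, against 163, 83.7 and 127 CPM in P10 libraries. Slc16a1, a transporter through which oligodendrocytes pass lactate to axons, had 133, 129.9 and 105 CPM in P14 libraries, against 48, 62.1 and 37.6 CPM in P10 libraries. Those 3 genes were apart between the ages, although the summed glycolytic level overlapped, at 14896, 21568 and 17786 CPM in P14 libraries and 16591, 10419 and 15473 CPM in P10 libraries.

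Nuclear-encoded oxidative phosphorylation genes were lower on the count scale, with a median log2 fold change of -0.79, but this was -0.20 without the trend with transcript length. On the TPM scale it was 0.13, below the 0.44 of the median gene, and -0.46 with libraries centred. Leaving out 1 library gave -0.52 without P10 replicate 2 and -1.08 without P10 replicate 1. Of 76 members, 19 were lower at P14 at an unadjusted p under 0.05 and 1 was higher, against 9.07% and 5.37% of all genes. Cox8a, a small subunit of cytochrome oxidase, had 956, 665 and 676 CPM in P14 libraries, against 1095, 5164 and 6627 CPM in P10 libraries, with P10 replicate 1 close to the P14 libraries. Cox5a had 404, 371 and 392 CPM in P14 libraries, against 821, 1394 and 1819.5 CPM in P10 libraries. Sdha, the catalytic subunit of succinate dehydrogenase and the 1 member that was higher, had 382, 377 and 479 CPM in P14 libraries, against 188, 120.4 and 200.1 CPM in P10 libraries. Mitochondrially encoded RNA ran from 0.00276% to 0.233% of counts in P14 libraries and from 0.00389% to 0.0637% in P10 libraries, and none of its 10 tested genes reached an unadjusted p of 0.05.

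Synaptic genes lay in both directions. Among 30 vesicle and fusion genes, 4 were higher and 3 lower at P14 at an unadjusted p under 0.05, against 5.37% and 9.07% of all genes. For 7 of 30 all P14 libraries lay above P10 and for 3 of 30 below, each against 11.0%. The median log2 fold change was 0.52, 0.26 without the length trend and 0.20 without P14 replicate 3. Vamp1, a vesicle SNARE of fast synapses, had 439.7, 292 and 379 CPM in P14 libraries, against 203, 168 and 165 CPM in P10 libraries. Sv2c, a vesicle glycoprotein, had 31.5, 18.3 and 29.7 CPM in P14 libraries, against 10.8, 14.6 and 5.29 CPM in P10 libraries. Syn1, a synapsin that tethers vesicles, had 107, 145 and 163 CPM in P14 libraries, against 285, 176 and 339.9 CPM in P10 libraries, a log2 fold change of -0.95 ± 0.39 (SE, n = 3 per age) that turned to 0.47 once the other pair of P14 libraries of the series was added. Of 22 active zone genes, 2 were higher and 2 lower at an unadjusted p under 0.05, against 5.37% and 9.07% of all genes. Cacna1a, the pore of the calcium channel of transmitter release, had 5.14, 3.27 and 5.45 CPM in P14 libraries, against 9.21, 33.4 and 61.7 CPM in P10 libraries and was called lower by DESeq2, whereas Cacna1e, a related channel, had 25.9, 14.5 and 29.6 CPM in P14 libraries, against 10.1, 12.7 and 2.43 CPM in P10 libraries. Nrxn2, a presynaptic adhesion molecule, had 62.5, 128 and 95.8 CPM in P14 libraries, against 216, 232 and 193 CPM in P10 libraries (log2 fold change -1.16, or 0.59 with the added P14 libraries).

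Channels and receptors followed. Of 28 voltage-gated sodium and potassium channel genes, 4 were higher at P14, against 5.37% of all genes, and 0 lower at an unadjusted p under 0.05. The median log2 fold change was 0.31, or 0.12 without P14 replicate 3. Besides Scn8a and Kcna2, these were Kcnc2, a potassium channel of fast-spiking neurons, with 27.1, 20.5 and 39.1 CPM in P14 libraries, against 5.05, 7.17 and 13.2 CPM in P10 libraries, and Scn1a, a sodium channel, with 10.6, 41.5 and 62.5 CPM in P14 libraries, against 9.91, 12.6 and 8.15 CPM in P10 libraries, where the groups overlapped. Among 19 ionotropic glutamate receptor genes, Gria1, an AMPA receptor subunit, was higher and 3 were lower, against 5.37% and 9.07% of all genes. Gria1 had 145, 200.4 and 243 CPM in P14 libraries, against 121, 90.1 and 25.5 CPM in P10 libraries. Grin2d, an NMDA receptor subunit of early development, had 38.8, 38.8 and 31.7 CPM in P14 libraries, against 65.6, 112 and 119.8 CPM in P10 libraries, and Grin1, the obligatory NMDA subunit, had 133, 178 and 199 CPM in P14 libraries, against 206, 276 and 674 CPM in P10 libraries. In the list of 17 GABA-A and glycine receptor genes and their chloride transporters, 1 was higher and 0 were lower, against the same shares. Of 25 postsynaptic density and dendritic mRNAs, 0 were higher and 5 were lower, against 5.37% and 9.07% of all genes. Nrgn, a calmodulin-binding protein of dendrites, had 45.7, 37.6 and 77.7 CPM in P14 libraries, against 149.7, 403 and 436 CPM in P10 libraries (log2 fold change -2.62 ± 0.51 (SE, n = 3 per age)).

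Midbrain transcription factors, markers of neurons native to the region, were lower. All 12 tested members had a negative log2 fold change, with a median of -1.0, or of -0.24 on the TPM scale and -0.83 there with libraries centred. Leaving out 1 library gave medians between -1.21 without P14 replicate 2 and -0.64 without P10 replicate 3. An unadjusted p under 0.05 was reached by 5 of 12, against 9.07% of all genes, and for 3 of 12 the P14 libraries lay below all P10 libraries, against 11.0%. Tfap2b had 25.1, 148 and 50.6 CPM in P14 libraries, against 212, 209.9 and 227 CPM in P10 libraries. Tfap2d had 0.916, 7.44 and 2.19 CPM in P14 libraries, against 19.5, 13.1 and 14.1 CPM in P10 libraries. Gata3, a factor of GABAergic midbrain neurons, had 39.7, 91.4 and 75.2 CPM in P14 libraries, against 117, 208 and 142 CPM in P10 libraries. Pou4f1, which marks RGC as well as tectal neurons and is in both lists, had 13.0, 6.29 and 30.8 CPM in P14 libraries, against 52.4, 118 and 29.7 CPM in P10 libraries, with overlap. The list sums were 193, 501 and 340 CPM in P14 libraries and 619, 842 and 652 CPM in P10 libraries. Their part in the other differences was not tested.

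Among secreted peptides, 1 gene was higher and 4 lower of 18, at an unadjusted p under 0.05, against 5.37% and 9.07% of all genes. Scg2, a granin of secretory granules, had 268, 143 and 254 CPM in P14 libraries, against 50.7, 111 and 89.9 CPM in P10 libraries, in contrast to Vgf above. Tac1, the precursor of substance P, had 90.5, 117 and 96.3 CPM in P14 libraries, against 180.1, 167 and 197 CPM in P10 libraries, and Cartpt, a peptide found in some RGC types, had 30.9, 31.7 and 24.2 CPM in P14 libraries, against 42.4, 53.2 and 90.1 CPM in P10 libraries. Of 29 heat shock and chaperone genes, 4 were higher and 2 lower, and of 31 proteasome genes, 1 was higher and 2 lower. Both stand against the same 5.37% and 9.07% of all genes. Stip1, a co-chaperone that links Hsp70 and Hsp90, had 161, 214 and 136 CPM in P14 libraries, against 77.0, 51.6 and 71.1 CPM in P10 libraries. Hspe1, the small chaperonin of mitochondria, had 80.9, 64.1 and 36.9 CPM in P14 libraries, against 91.0, 285 and 358 CPM in P10 libraries.

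Several abundant neuronal genes also lay apart between the ages. Uchl1, a ubiquitin hydrolase that is abundant in neurons, had 408, 862 and 497 CPM in P14 libraries, against 1893, 1586 and 2106 CPM in P10 libraries. Atp6v0c, a membrane subunit of the vacuolar proton pump, had 1736, 2346 and 3001 CPM in P14 libraries, against 5237, 5383 and 5461 CPM in P10 libraries, whereas Atp6v1g2, a neuronal subunit of the same pump, had 739, 728 and 617 CPM in P14 libraries, against 408, 309 and 331 CPM in P10 libraries. The P10 libraries, replicate 1 included, were close to each other for all 3 of these genes. Fxyd7, a regulator of the sodium-potassium pump, had 89.5, 105 and 69.1 CPM in P14 libraries, against 294, 405 and 208 CPM in P10 libraries. Mapk10, the neuronal JNK kinase, had 283, 205 and 213 CPM in P14 libraries, against 131, 106 and 112 CPM in P10 libraries. Egr1, an activity-dependent transcription factor, had 24.9, 18.3 and 31.5 CPM in P14 libraries, against 9.64, 8.86 and 5.94 CPM in P10 libraries, and Jund, of the same list of immediate early genes, had 2.43, 6.43 and 18.2 CPM in P14 libraries, against 36.8, 49.8 and 65.3 CPM in P10 libraries. The 2 transcription factors thus lay in opposite directions. The other lists include cholesterol synthesis, splicing factors, cell cycle, chromatin regulators and axon survival. They had between 0 and 3 members past an unadjusted p of 0.05 in each direction. Their tested members numbered between 5 and 34, and the shares of all genes were 5.37% higher and 9.07% lower. The same count can thus be a different share: 3 of 16 ubiquitin and protein quality genes were lower, and 3 of 34 splicing factors.

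**Figure D3:**
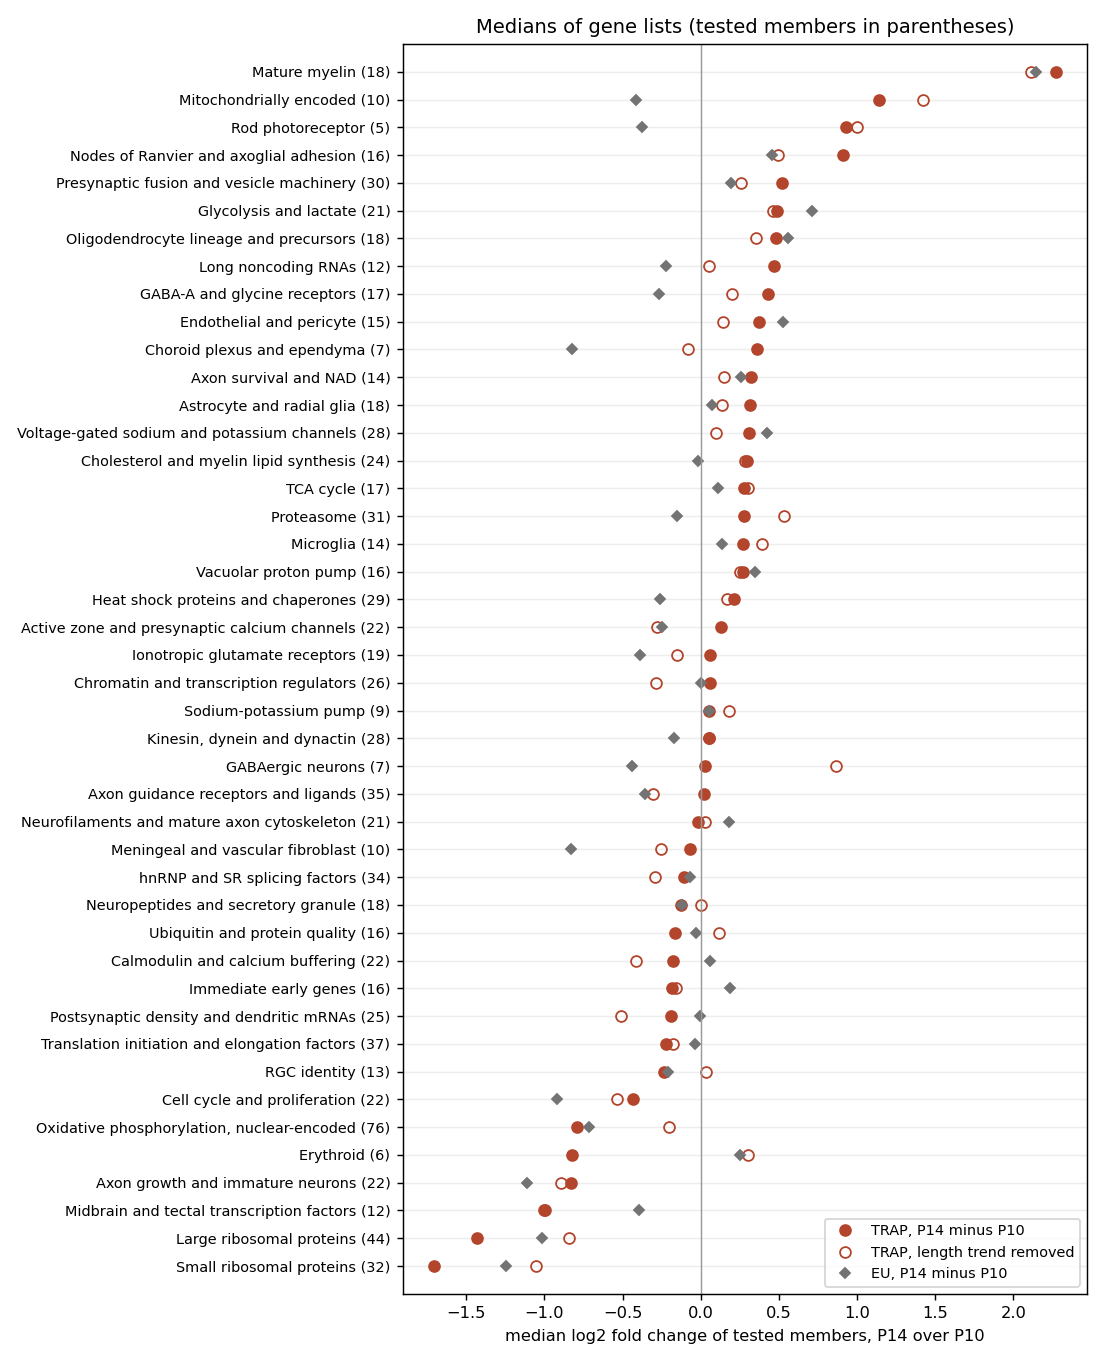
Median log2 fold change, P14 over P10, of the tested members of 44 gene lists in SC axon-TRAP libraries (filled red), the same value once the trend with transcript length is removed (open red), and in SC EU libraries (grey diamonds). Mature myelin lies at 2.28 and both ribosomal lists lie below -1.4 in TRAP, the EU medians of these lists have the same sign, and oxidative phosphorylation and ribosomal genes lie nearer to 0 once the length trend is removed.

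The difference between the ages depended on transcript length. The median log2 fold change was -0.96 in 936 genes whose longest transcript is at most 1 kb, -0.40 at 1 to 2 kb, 0.01 at 2 to 4 kb, 0.27 at 4 to 8 kb and 0.37 in 891 genes over 8 kb. P14 libraries lay above all P10 libraries for 2.14% of genes of at most 1 kb and 16.9% of genes over 8 kb, and below them for 26.1% and 4.04%. Over 15742 genes Spearman's rho of length with log2 fold change was 0.316, a description across genes that share the same 6 libraries. The gradient was not the same in each library. For genes of at most 1 kb the median deviation from the 6-library mean was -0.06, -0.37 and -0.74 in P14 replicates 1, 2 and 3, against -0.19, 0.64 and 0.77 in P10 replicates 1, 2 and 3, so P10 replicate 1 lay within the range of P14. The part of this gradient in the differences of single genes was tested only by removing it, which left 0 genes called by edgeR and 1957 with an unadjusted p under 0.05.

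**Figure D4:**
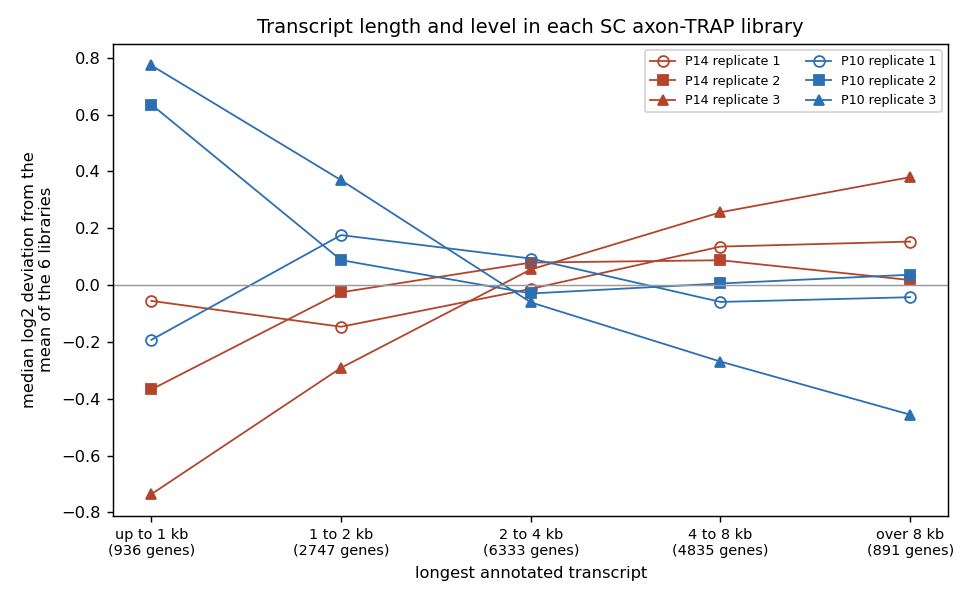
Median log2 deviation of each SC axon-TRAP library from the mean of the 6 libraries, by length of the longest annotated transcript, with P14 in red and P10 in blue. The lines of P14 replicate 3 and P10 replicate 3 diverge most, from -0.74 and 0.77 at up to 1 kb, and P10 replicate 1 lies among the P14 libraries in the shortest class.

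EU-labelled RNA of the SC gave calls at the same ages. Of 16262 genes tested, 148 rose (0.910%) and 182 fell (1.12%) at P14, 2.03% in all, by edgeR's quasi-likelihood test at an adjusted p under 0.05. These counts ran from 29 to 2092 when 1 EU library was left out, lowest without EU P10 replicate 1 and highest without EU P14 replicate 3. Mature myelin genes rose for 9 of 18, with a median log2 fold change of 2.15, near the 2.28 of the TRAP libraries. Mobp had a log2 fold change of 3.24 ± 0.33 in EU libraries (adjusted p 0.0019, edgeR), Mbp 3.12 ± 0.37 (adjusted p 0.0035, edgeR) and Sema4d 2.05 ± 0.30 (adjusted p 0.0092, edgeR). Ribosomal protein genes fell for 12 of 44 large and 11 of 32 small subunit members, with medians of -1.02 and -1.25, and axon growth genes fell for 4 of 22, with a median of -1.11. The EU median was -0.64 in genes whose longest transcript is at most 1 kb and 0.07 at 1 to 2 kb. The median longest transcript of the ribosomal lists was 1082.5 and 1101.5 bases. No length trend was removed from the EU values. The EU and TRAP comparisons share no library.

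Single genes did not all go together. Dio2 had a log2 fold change of 2.80 in TRAP and -0.11 in EU libraries, Slc1a2 2.13 and 0.19, and Rpl10 -2.58 and -0.04. Tpt1 had -2.46 in TRAP and 0.69 in EU, and Nrgn -2.62 and -0.00. The difference was tested as an interaction of age and capture over 18660 genes: 0 genes were called by edgeR, the smallest adjusted p was 0.336, and 2051 genes (11.0%) had an unadjusted p under 0.05. DESeq2 called 164. The age difference of no gene was thus shown by edgeR to differ between ribosome-bound and EU-labelled RNA.

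**Figure D5:**
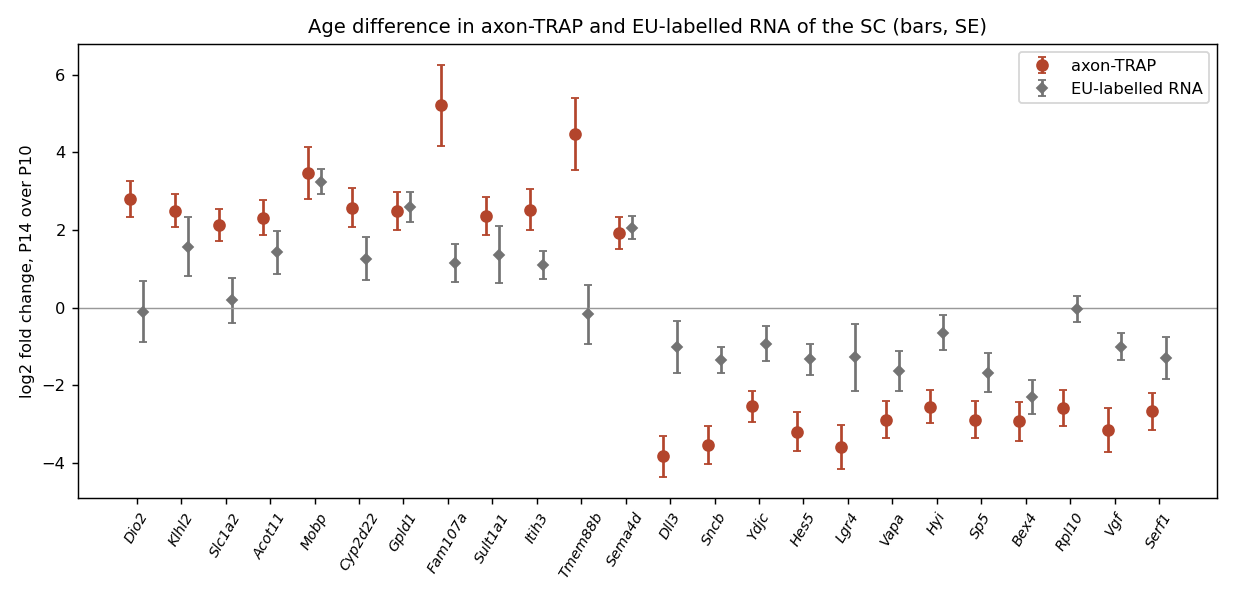
Log2 fold change, P14 over P10, of the 24 named genes in SC axon-TRAP libraries (red circles) and SC EU libraries (grey diamonds), with bars for 1 SE and 3 libraries per age and capture. Mobp, Gpld1, Sema4d and Bex4 have close values in both captures, whereas Dio2, Slc1a2, Tmem88b and Rpl10 lie near 0 in EU libraries.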

How the data were processed

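The submitters' processing notes name Salmon and mm10. Its version, the annotation, trimming and the strand setting were not given. Per the labels' protocols, cDNA was amplified before Nextera XT libraries were made. The authors deposited 1 table of estimated counts per Ensembl gene and 1 of TPM, for 48 libraries. Of 54331 genes, 54097 matched GENCODE M21 on GRCm38, which gave symbols, positions and longest transcripts. Replicates follow the title codes.

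Estimated counts were rounded to whole numbers, filterByExpr set aside genes with too few counts, TMM factors scaled the libraries, and P14 was tested against P10 with the two-sided quasi-likelihood F test of edgeR 4.0.16 in R 4.3.3, called at an adjusted p under 0.05 (Benjamini-Hochberg). EU libraries and the interaction were fitted likewise. DESeq2 1.42.0, limma-trend 3.58.1 on log2(TPM + 1) and other alternatives are in the closing section. The procedure was tested on simulated data. There edgeR called 0, 17, 30 and 42 of 50 genes changed by a factor of 2, 4, 8 and 16. DESeq2 called 2, 31, 40 and 48 of the same genes. False calls among unchanged genes were 5 with edgeR and 50 with DESeq2. Each gene was drawn on its own with the spread that edgeR estimated, with no length gradient and no P10 library set apart. The rates may thus differ in the real libraries. Library totals limit precision for genes of few counts.

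The members and the 44 gene lists were chosen with earlier results of these data known. The named genes are the 12 highest and 12 lowest log2 fold changes past an adjusted p of 0.05. As none passed, the smallest unadjusted p filled the places, among genes whose groups do not overlap, which differ by 1 or more on the log2 scale, average a log2 CPM of 4 or more and have no predicted symbol. The rule also takes the 3 members of each list with the highest CPM, and not all of these are reported here. The other list members in the text were chosen after their values were seen, mostly for a small unadjusted p.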

Additional observations from a re-analysis of the deposited data

How the results depend on the processing

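The number of genes called for P14 against P10 in SC axon-TRAP was 0 with TMM and with RLE size factors, with limma-trend on log2(TPM + 1), with all 5 P14 libraries, with the trend on transcript length removed and without mitochondrially encoded and rRNA genes. It was 833 with no filter on low counts, 760 with DESeq2, 1 with log2(TPM + 0.1) and 1 with log2(TPM + 1) after libraries were centred, an alternative chosen after seeing the data. Leaving out 1 library gave between 0 and 235 calls. The 235 came without P10 replicate 1, and DESeq2 on all 6 libraries called 203 of them. The interaction moved from 0 to 335 with no filter and to 164 with DESeq2, and ran from 0 to 143 with 1 library left out. The 143 came without EU P14 replicate 3. EU calls moved from 330 to 1093 with no filter, to 1381 with DESeq2 and from 29 (without EU P10 replicate 1) to 2092 (without EU P14 replicate 3). The cause was not tested.

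With the replicate number as a block, TRAP calls stayed at 0 (1411 genes with an unadjusted p under 0.05), interaction calls at 0, and EU calls moved to 630. TRAP libraries with the same number share only that number: their deviations from the group means correlated at -0.08, -0.23 and -0.15, and none correlated best with its own number.

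Of 124 genes followed through 16 alternatives, all kept their direction except Syn1 and Nrxn2, which turned to 0.47 and 0.59 with all 5 P14 libraries. DESeq2 called 77 of them and the fit without P10 replicate 1 called 36. Most of these genes were chosen on values of the same libraries that the alternatives refit, so a kept direction was largely set in advance. List medians moved by more than the spread between libraries for 35 of 44 lists with log2(TPM + 1), where the median gene lay at 0.44, for 11 with libraries centred and for 17 with the length trend removed. Low counts limit genes near the filter, such as Tmem88b and Opalin at P10.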

Other observations

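The series holds further P14 SC axon-TRAP libraries that the comparison does not use. These are 2 wild-type libraries of another code series (PT) and 3 libraries labelled fmr1ko, a knockout of the Fmr1 gene. Each was set against the range of the 3 P10 libraries for the 1726 genes whose P14 libraries lay above P10 and the 1737 whose P14 libraries lay below. Wild-type PT replicate 2 lay above all P10 libraries for 84.4% of the higher genes, against 28.3% of all genes, and below them for 83.0% of the lower genes, against 24.7% of all genes. Wild-type PT replicate 3 lay above for 39.6% of the higher genes, against 26.7% of all genes, and below for 48.6% of the lower genes, against 41.3%. The fmr1ko libraries lay above for 54.1% to 63.2% of the higher genes, against 31.6% to 33.0% of all genes, and below for 79.0% to 81.5% of the lower genes, against 39.6% to 47.3%.

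Mean correlations of log2 CPM with the 3 P14 libraries and with the 3 P10 libraries were 0.940 and 0.890 for PT replicate 2, but 0.813 and 0.832 for PT replicate 3, so that this P14 library lay closer to P10. The P10 values enter both shares and both correlations, and no test was made.

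Actb, cytoplasmic beta-actin, was chosen after its values were seen. It had 383, 1067 and 1799 CPM in P14 libraries, against 1621, 19944 and 19029 CPM in P10 libraries, so P10 replicate 1 was more than 10-fold below the other P10 libraries and within the P14 range.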
